A study of Mus musculus with 18 samples.

Results

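The liver makes most of the proteins that circulate in blood plasma. The genes described here are 48 that encode clotting factors, inhibitors of clotting and fibrinolysis, complement components and acute-phase proteins. They were taken by symbol from a table of normalized expression values, in which 47 of the 48 had a row among 14451 rows in all. The symbol without a row was C5. The mouse gene for this protein carries the symbol Hc, and its row was followed beside the others but not counted with them. The table comes from 18 whole livers of male wild-type mice (WT in the labels, with no strain named), 8 to 9 weeks old, which lived in 12 h of light and 12 h of dark. Livers were taken at zeitgeber time (ZT, hours after lights on) 1, 5, 9, 13, 17 and 21, with 3 mice at each of the 6 times, and no group received a treatment or carried a changed gene. Each animal gave 1 liver, so the time course runs across animals. Of the mice kept for each time, those with the best RNA were sequenced.

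Clotting proceeds through a cascade in which each protease activates the next, from the contact factors (prekallikrein and factors XI and XII) or from tissue factor with factor VII down to thrombin, which turns fibrinogen into fibrin. Serpins and protein C with protein S restrain this cascade, and plasmin dissolves the clot. Complement is another cascade of plasma proteases, started by antibodies, by mannose-binding lectins or spontaneously, which converges on C3 and ends in the pore of C5b to C9. Acute-phase proteins are plasma proteins whose synthesis in hepatocytes changes during inflammation, with serum amyloid A as the best-known example in mice, and C/EBP and STAT factors acting below IL-6 are known activators of many of them.

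Expression was measured by RNA sequencing of polyadenylated RNA. Each value is an estimated read count brought to a common library of 1000000 reads, and the livers held 10268168 to 23242842 estimated reads. Markers of hepatocytes, the cells that make most of these proteins, were high in every liver, and 6 of them summed to between 71507 and 102447. Kupffer cell markers (8 genes, sum 113 to 300), sinusoidal endothelial markers (6 genes, 87.9 to 221) and neutrophil markers (3 of 7 with a row, sum 0.893 to 2.72) were low beside them. In bulk liver, fewer cells of a type and less RNA per cell cannot be told apart. All 17 genes of a clock list, among them Arntl, Dbp, Nr1d1 and Per2, differed between time points. By these genes 17 of the 18 livers resembled their own time most, while the liver labelled ZT5 replicate 3, the deepest, was closest to ZT9. A group of 3 livers, ZT9 replicate 2, ZT13 replicate 2 and ZT17 replicate 3, stood above all others in Saa1, Saa2, Lcn2, Orm2 and Hp. In other acute-phase genes, such as Hpx and Itih4, not all 3 did so. For many results, values with and without these livers are given. These livers were singled out after their Saa1 values had been seen. The 47 genes together made up 3.66% to 5.94% of the summed values of a liver, with a median of 4.25%.

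The promoters of the serum amyloid A and fibrinogen clusters are shown because the genes of each cluster lie close together and have a row each. The windows reach from 250 bases before to 50 bases after the start of the gene (RefSeq, GRCm38.p6) and are printed 5′ to 3′ on the strand of the gene. Capitals mark the letters TTGCNNAA, a C/EBP-type motif, and TTCNNNGAA, a STAT-type motif, each searched on both strands. The windows are Saa1 at chr7:46742931-46743230 (minus strand), Saa2 at chr7:46751583-46751882 (plus), Saa4 at chr7:46732554-46732853 (minus), Fga at chr3:83025903-83026202 (plus), Fgb at chr3:83049814-83050113 (minus) and Fgg at chr3:83007474-83007773 (plus).
Saa1: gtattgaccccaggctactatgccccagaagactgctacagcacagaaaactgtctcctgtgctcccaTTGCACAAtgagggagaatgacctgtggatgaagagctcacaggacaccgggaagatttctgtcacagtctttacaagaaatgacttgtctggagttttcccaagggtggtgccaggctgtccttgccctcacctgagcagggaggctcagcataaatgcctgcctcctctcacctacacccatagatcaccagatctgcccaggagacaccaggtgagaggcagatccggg
Saa2: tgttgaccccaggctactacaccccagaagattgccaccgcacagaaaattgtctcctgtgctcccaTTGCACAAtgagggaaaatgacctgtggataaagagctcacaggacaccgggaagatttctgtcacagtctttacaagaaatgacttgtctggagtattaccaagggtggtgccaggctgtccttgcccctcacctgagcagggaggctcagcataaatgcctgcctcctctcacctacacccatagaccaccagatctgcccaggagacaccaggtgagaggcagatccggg
Saa4: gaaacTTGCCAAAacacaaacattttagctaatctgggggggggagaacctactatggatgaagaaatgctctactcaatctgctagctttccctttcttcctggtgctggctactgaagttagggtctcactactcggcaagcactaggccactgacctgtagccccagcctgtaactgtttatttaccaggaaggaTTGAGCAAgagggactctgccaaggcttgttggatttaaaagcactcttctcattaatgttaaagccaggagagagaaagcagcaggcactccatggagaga
Fga: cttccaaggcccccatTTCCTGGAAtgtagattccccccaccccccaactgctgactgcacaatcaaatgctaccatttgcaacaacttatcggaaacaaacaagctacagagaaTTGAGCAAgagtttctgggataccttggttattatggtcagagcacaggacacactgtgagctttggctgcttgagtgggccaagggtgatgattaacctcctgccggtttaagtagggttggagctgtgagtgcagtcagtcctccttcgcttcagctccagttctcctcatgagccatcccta
Fgb: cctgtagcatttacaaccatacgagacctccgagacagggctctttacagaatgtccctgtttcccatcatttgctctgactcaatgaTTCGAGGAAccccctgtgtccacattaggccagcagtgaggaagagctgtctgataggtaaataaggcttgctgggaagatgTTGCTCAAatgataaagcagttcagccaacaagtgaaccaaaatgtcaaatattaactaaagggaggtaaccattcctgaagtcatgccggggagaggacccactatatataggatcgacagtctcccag
Fgg: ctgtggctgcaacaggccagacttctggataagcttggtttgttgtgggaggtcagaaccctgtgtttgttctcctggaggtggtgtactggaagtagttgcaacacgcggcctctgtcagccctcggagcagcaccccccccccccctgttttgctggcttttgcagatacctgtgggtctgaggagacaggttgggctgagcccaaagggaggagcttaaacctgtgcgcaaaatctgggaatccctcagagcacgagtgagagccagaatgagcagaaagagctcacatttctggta
Saa1 and Saa2 were identical at 287 of 299 aligned bases of these windows, and each held 1 C/EBP-type match, starting 182 and 183 bases before the start. Saa4 held 2 such matches at other places, 245 and 52 bases before its start. Fga and Fgb each held 1 match of both motifs, and Fgg held neither. Of the 47 genes, 36 had a promoter in the table, with 37 windows. The C/EBP-type letters were in 14 of these windows (37.8%) and in 10.8% of all 32851 windows. The STAT-type letters were in 8 (21.6%) and in 8.3% of all. A D-box (TTATGTAA) or an E-box (CACGTG), the motifs bound by Dbp-like and Clock-like factors, was in none of the 37, against 0.938% and 7.15% of all windows. The core letters AGGTCA of nuclear receptor sites was in 17 (45.9%), and in 16.3% of all. In the windows shown no match overlapped another. The motifs were chosen with results of these data known, and matches are a description of these letters in these windows and were not tested.

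The first question was which of the genes differed between times of day. The limma F test over the 6 time points, on log2(value + 1) and adjusted over all 14449 genes tested, called 12 of the 47 genes at an adjusted p below 0.05, or 25.5%, and 26.3% of all genes were called. A 24 h cosine fitted with limma was called for 17 of them (36.2%), against 35.3% of all genes. The rank test JTK, with periods of 20, 24 and 28 h, called 9 (19.1%), against 14.1%. These shares lay near those of all genes. The highest and the lowest time point did not overlap in any liver for 30 of the 47 genes (63.8%), where 70.8% of all genes showed this. The 12 h term was called for none of the 47 by limma, with 0 at an unadjusted p below 0.05 too, against 0.872% of all genes. The median fold between the time points with the highest and lowest mean was 1.33 over the 47 genes and 1.48 over all genes, and the median spread between replicates of a time (CV) was 0.085 and 0.138.

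The 12 genes called by the F test spread over most roles. They were Pros1, F5, F11, Klkb1, Fgg and Serpinf2 of clotting and fibrinolysis, Cfb, C6, C9, Mbl1 and Masp1 of complement, and Saa4 of the acute phase. Of the 9 genes called by JTK, F9, Pros1, F5, F11, Klkb1, Fgg, Serpinf2, Masp1 and Saa4, the calls of F9, F11 and Fgg were lost in 10, 13 and 15 of the 18 fits that left out 1 liver (JTK q-values up to 0.125, 0.113 and 0.117), and the other 6 were called in all 18. Without the 3 livers together, JTK called F5, Klkb1 and Masp1, and the calls of Pros1, Serpinf2 and Saa4 were lost too (JTK q-values of 0.0664, 0.0555 and 0.121). The peaks of the 17 genes with a called cosine fell in every part of the day, 4 between ZT0 and ZT6, 4 between ZT6 and ZT12, 5 between ZT12 and ZT18 and 4 between ZT18 and ZT24. Peaks of all called genes were as evenly spread, with between 22.8% and 28.3% in each 6 h window.

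**Figure D1:**
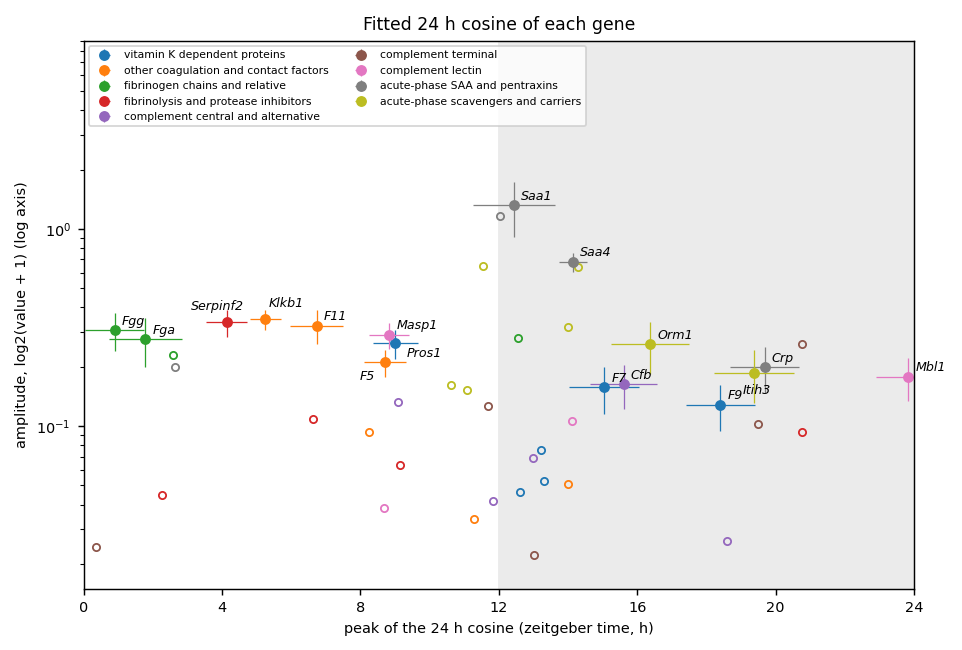
Amplitude of the 24 h cosine (log2 scale, drawn on a log axis) against its peak time (ZT in h) for the 47 genes, coloured by role. Filled points with bars (SE of both axes) are the 17 genes called by limma, open points are the others and grey marks the dark phase. Called genes lie all around the day, and Saa1 and Saa4 lie above the rest of them.

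Saa4 had the largest ratio between time points of the genes called by the F test. Saa4 encodes a serum amyloid A that is made constitutively and travels on high-density lipoprotein (chromosome 7, 46727998 to 46732603, minus strand, ENSMUSG00000040017). Its values were 194, 203 and 174 at ZT1, 139, 176 and 172 at ZT5, 240.1, 318 and 261 at ZT9, 416, 466 and 363 at ZT13, 345, 383 and 378 at ZT17, and 234, 182 and 169 at ZT21. All 6 livers of ZT13 and ZT17 lay above all 12 others. The mean at ZT13 was 415 ± 51.6 (SD, n = 3), 2.55 times the 163 ± 20.4 at ZT5 (limma F test, adjusted p = 1.83e-05). The cosine peaked at 14.1 h ± 0.41 (SE) with an amplitude of 0.68 ± 0.07 (log2). ZT13 exceeded ZT1 by 1.12 ± 0.14 on the log2 scale, and ZT17 exceeded ZT5 by 1.18 ± 0.14 (limma, adjusted p = 9.87e-05 and 6.35e-05). Without the 3 livers that stood apart, the amplitude was 0.62 ± 0.08 and the F test gave an adjusted p of 0.000446, the highest in any setting tried.

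The contact factors Klkb1 and F11 lie next to each other on chromosome 8, and both stood highest in the light phase. Klkb1 encodes prekallikrein, which with factor XII starts the contact pathway (45269671 to 45308466, minus strand). Its values were 175, 183 and 183 at ZT1, 218, 207 and 194 at ZT5, 192, 205 and 215 at ZT9, 136, 154 and 144 at ZT13, 131, 129.7 and 125 at ZT17, and 138, 175 and 151 at ZT21. Every liver of ZT5 and ZT9 lay above every liver of the other times. The mean fell from 207 ± 12.3 at ZT5 to 128 ± 3.28 at ZT17 (SD, n = 3), a difference of -0.68 ± 0.09 on the log2 scale (limma, adjusted p = 0.000166). Its cosine peaked at 5.25 h ± 0.45 with an amplitude of 0.35 ± 0.04, and the F call held in every setting (adjusted p at most 0.00431). Klkb1 overlaps Cyp4v3 on the same strand, so reads of the shared part may belong to either gene.

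F11 encodes factor XI, which activates factor IX (45241174 to 45262031, minus strand). Its values were 77.0, 94.4 and 71.9 at ZT1, 115, 90.6 and 98.1 at ZT5, 84.3, 113 and 118 at ZT9, 78.5, 65.5 and 75.7 at ZT13, 71.8, 79.9 and 63.9 at ZT17, and 75.5, 70.3 and 55.9 at ZT21. The livers of ZT5 and ZT9 lay above all those of the 3 later times, and ZT1 overlapped both sets. The ratio of ZT9 to ZT21 was 1.56, and the cosine peaked at 6.74 h ± 0.76 with an amplitude of 0.32 ± 0.06 (limma, adjusted p = 0.0027). The F call (adjusted p = 0.0189) was lost without the 3 livers together (0.0928), while the cosine call was not (0.0145).

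F5 encodes factor V, the cofactor with which factor Xa makes thrombin (chromosome 1, 164151838 to 164220277, plus strand). Its values were 473, 473 and 449 at ZT1, 552, 554 and 551 at ZT5, 577, 559 and 594 at ZT9, 501, 593 and 508 at ZT13, 449.5, 488 and 457 at ZT17, and 432, 473 and 400.3 at ZT21. ZT5 and ZT9 lay above ZT1, ZT17 and ZT21 in every liver, and ZT13 overlapped ZT9 through 1 liver. The step was small, 1.33-fold between ZT9 (577 ± 17.9) and ZT21 (435 ± 36.5), and it passed the F test with an adjusted p of 0.00967 and peaked at 8.72 h ± 0.61 (limma).

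Pros1, which encodes protein S, the cofactor of activated protein C (chromosome 16, 62854307 to 62929346, plus strand), was also highest at ZT9 and lowest at ZT21. It stood at 59.8, 50.1 and 53.7 at ZT1, 77.5, 66.0 and 62.8 at ZT5, 65.2, 75.0 and 70.4 at ZT9, 58.7, 71.8 and 65.4 at ZT13, 57.5, 52.5 and 62.5 at ZT17, and 46.4, 46.9 and 50.8 at ZT21. Every liver of ZT5, ZT9 and ZT13 lay above those of ZT21. ZT21 was lower than ZT9 by a log2 difference of -0.54 ± 0.11, and the cosine peaked at 9.01 h ± 0.64 (limma, adjusted p = 0.00503 and 0.000673). Pros1 is also made by endothelial cells, and endothelial and Kupffer markers stood highest at about the same times. The endothelial sum was 153 to 198 at ZT9 and 93.6 to 147 at ZT21, and the Kupffer sum 224 to 280 and 113 to 172. A 24 h cosine was called for 3 of 6 and 4 of 8 of these markers, against 35.3% of all genes. The F test called 0 of 6 and 1 of 8 of them, against 26.3% of all genes. The hepatocyte sum was 71507 to 77000 at ZT9, below all livers of the other times. Of the 6 hepatocyte markers, 3 were called by the F test and 2 by the cosine, so they also changed with time. The part of these cells in the course of Pros1, F5, F11 and Masp1 was not tested.

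Among the other factors of the cascade, thrombin's precursor did not pass a test. F2 was at 1361, 1463 and 1489 at ZT1, 1559, 1364 and 1427 at ZT5, 1446, 1472 and 1417 at ZT9, 1682, 1579 and 1451 at ZT13, 1464, 1438 and 1452 at ZT17, and 1519.8, 1414 and 1345 at ZT21. All time points overlapped, and their means lay within 1.10-fold (limma F test, adjusted p = 0.692). F7, the factor that tissue factor binds, and F9, the vitamin K dependent factor IX, passed the cosine test with small amplitudes of 0.16 ± 0.04 and 0.13 ± 0.03 (log2) and peaks at 15 h and 18.4 h (limma, adjusted p = 0.0198 and 0.019). Without the 3 livers that stood apart, the cosine call of F7 was lost (0.0589) and that of F9 held (0.045). F10, Proc, F12, F13b and Kng1, which encode factor X, protein C, factor XII, the carrier chain of factor XIII and kininogen, had ratios of highest to lowest time of 1.08 to 1.14 and passed none of the 3 tests. Kng1 has a close paralog, Kng2, with which it may share reads.

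**Figure D2:**
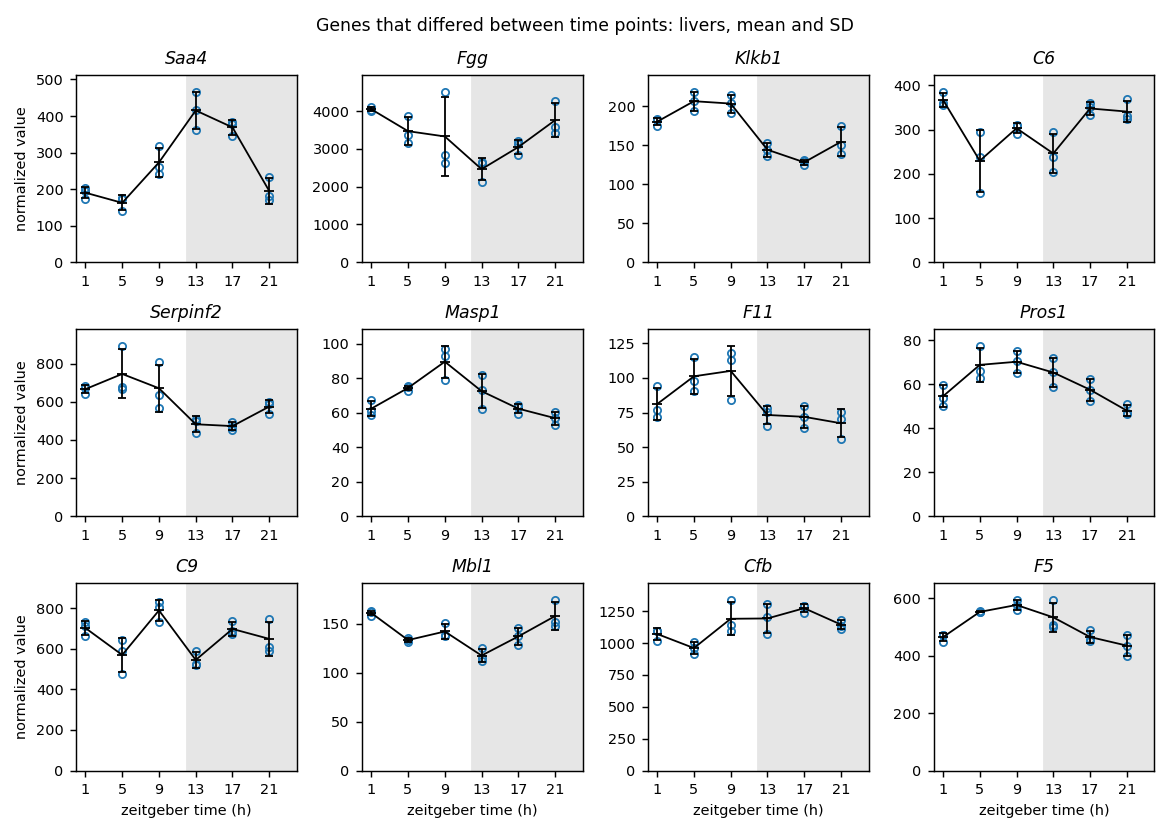
Normalized value (linear axis from 0) against zeitgeber time for the 12 genes called by the limma F test. Circles are single livers, lines and bars the mean and SD of 3 livers, and grey marks the dark phase. Saa4 is highest at ZT13 and ZT17, Klkb1, Serpinf2, F11, Pros1, F5 and Masp1 at ZT5 and ZT9, and Fgg and Mbl1 at ZT1 and ZT21.

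The 3 fibrinogen chains lie in 1 cluster on chromosome 3 and were lowest at ZT13. Fgg, the gamma chain (83007724 to 83015049, plus strand), was at 4006, 4110.3 and 4033 at ZT1, 3875, 3379.5 and 3154 at ZT5, 2630.0, 4517 and 2843 at ZT9, 2649.7, 2621 and 2121 at ZT13, 2829, 3202 and 3117 at ZT17, and 4269.8, 3423 and 3588 at ZT21. ZT13 lay below ZT1, ZT5, ZT17 and ZT21 in every liver, and ZT9 spanned nearly the whole range because replicate 2 was the highest of all 18 livers. ZT13 (2464 ± 298) was lower than ZT1 (4050.0 ± 54.0) by a log2 difference of -0.72 ± 0.17, a ratio of 1.64 (limma, adjusted p = 0.0085), and this contrast held in every setting. The cosine peaked at 0.897 h ± 0.84 (limma, adjusted p = 0.00603). The F call of Fgg (adjusted p = 0.0366) was lost in 11 of 18 fits that left out 1 liver, with values up to 0.118. These were the fits without any single liver of ZT1 or ZT13, without ZT5 replicate 2, or without replicate 1 or 3 of ZT17 or ZT21. The F call was also lost with the pseudocount of 0.1 (0.0501).

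Fgb, the beta chain (83040141 to 83049863, minus strand), was at 4057, 4048 and 3999 at ZT1, 4729.5, 3786 and 3634 at ZT5, 3186, 5787 and 3416 at ZT9, 3029, 3017 and 2490.2 at ZT13, 3121, 3491 and 3329 at ZT17, and 4507, 3618 and 3566 at ZT21. The same liver, ZT9 replicate 2, was again highest. With it neither the F test nor the cosine was called (limma, adjusted p = 0.149 and 0.0612), and without it both were (0.0263 and 0.00247). Fga, the alpha chain (83026076 to 83033627, plus strand), had means from 3078 ± 430.5 at ZT13 to 4693 ± 94.6 at ZT1 and passed the cosine test (adjusted p = 0.0256, peak at 1.78 h) but not the F test (0.119). Its F test gave 0.0103 without ZT9 replicate 2, and its cosine 0.0708 without ZT13 replicate 3 and 0.0644 on the linear scale. Without the 3 livers together the cosines of Fga, Fgb and Fgg had amplitudes of 0.33 ± 0.06, 0.27 ± 0.06 and 0.37 ± 0.05 (log2) and adjusted p-values of 0.00192, 0.00891 and 0.000399, with peaks between 0.257 h and 1.27 h. The F test then gave 0.0298, 0.0648 and 0.00977, so Fgb was not called by it. ZT9 replicate 2 was the highest of the 18 livers in all 3 chains. The p-values without it show how calls turned on 1 animal and are no fair test of these genes. Fgl1, a fibrinogen-related protein secreted by hepatocytes, ranged from 104 to 377, passed no test and was highest in the same ZT9 liver.

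Among the 5 genes of fibrinolysis and of the protease inhibitors (Plg, Serpinc1, Serpind1, Serpinf2 and Serping1), Serpinf2 was called by the F test and the other 4 were not. It encodes alpha-2-antiplasmin, the main inhibitor of plasmin (chromosome 11, 75431732 to 75439591, minus strand). Its values were 643, 682 and 674 at ZT1, 893, 667 and 677 at ZT5, 569, 809 and 635 at ZT9, 510.3, 502 and 435 at ZT13, 454, 469 and 495 at ZT17, and 598, 589 and 538 at ZT21. ZT1, ZT5 and ZT9 lay above ZT13 and ZT17 in every liver. ZT17 (473 ± 20.9) was lower than ZT5 (746 ± 128) by a log2 difference of -0.64 ± 0.13, and the peak was at 4.14 h ± 0.60 with an amplitude of 0.34 ± 0.05 (limma, adjusted p = 0.00307 and 0.00036). The F call held in every setting, with an adjusted p of at most 0.0158.

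Antithrombin, encoded by Serpinc1, was at 1785, 1895 and 2022 at ZT1, 1929, 1755 and 1863 at ZT5, 1676, 1701 and 1687 at ZT9, 1888, 1861 and 1712 at ZT13, 1958, 1991 and 1916 at ZT17, and 2101, 1934 and 1825 at ZT21. ZT9 was the lowest time, and its 3 livers lay below all others. The ratio of ZT17 to ZT9 was 1.16 and the F test was not passed (limma, adjusted p = 0.271). Plg, Serpind1 and Serping1, which encode plasminogen, heparin cofactor II and the C1 inhibitor, had ratios of 1.17, 1.12 and 1.11 and no call.

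In complement, the central component stayed level. C3 was at 4885, 6306 and 5613 at ZT1, 6543, 4569 and 5283 at ZT5, 5173, 6189 and 5100.3 at ZT9, 5601, 6111 and 4856 at ZT13, 5636, 5449 and 5977 at ZT17, and 5324, 6038 and 5271 at ZT21. The means lay within 1.04-fold of each other while livers of the same time differed by up to 1.43-fold (limma F test, adjusted p = 0.997). Cfb encodes factor B, which joins C3b in the convertase of the alternative pathway, and overlaps another gene with a row on chromosome 17. Its values were 1019, 1098 and 1097 at ZT1, 1007, 962 and 912 at ZT5, 1138, 1339 and 1094 at ZT9, 1202, 1304 and 1072 at ZT13, 1237, 1294 and 1289 at ZT17, and 1184, 1137 and 1113 at ZT21. All livers of ZT17 lay above all of ZT5, a log2 difference of 0.41 ± 0.09 (limma, adjusted p = 0.00698), and this contrast and the cosine (peak at 15.6 h ± 0.96, adjusted p = 0.0148) held in every setting. The F call (0.04) did not. It was lost in 13 of 18 fits that left out 1 liver, namely those without any single liver of ZT1, ZT5, ZT17 or ZT21 or without ZT13 replicate 1 (adjusted p up to 0.124). The F call was also lost without the 3 livers together (0.081) and when the livers were scaled to equal totals (0.105). C4b, Cfi and C4bp, which encode C4, factor I and the C4b-binding protein chain, had ratios of 1.22, 1.08 and 1.13 and no call. C4b has a close paralog, C4a, with which it may share reads.

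The terminal components C6 and C9, which build the membrane pore, passed the F test but not the 24 h cosine test. C6 (chromosome 15, 4727175 to 4814967, plus strand) was at 386, 356 and 359 at ZT1, 237, 295 and 156 at ZT5, 308, 289.8 and 311 at ZT9, 238, 205 and 294 at ZT13, 333, 351 and 359.5 at ZT17, and 368, 323 and 330.2 at ZT21. It was low at ZT5 and ZT13, with a higher mean at ZT9 between them (limma F test, adjusted p = 0.0191). Its cosine amplitude was 0.26 ± 0.09 (log2), not called at the threshold (limma, adjusted p = 0.0825). ZT5 replicate 3, the liver whose clock genes lay nearest to ZT9, had the lowest value, and without it the cosine gave 0.0395. The excess of ZT17 over ZT5 (0.64 ± 0.17 on the log2 scale, adjusted p = 0.017) was then 0.39 and no longer called (0.0668).

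C9 (chromosome 15, 6445327 to 6498751, plus strand) was at 732, 711 and 666 at ZT1, 588, 644 and 478 at ZT5, 732, 832 and 805 at ZT9, 525, 591 and 519 at ZT13, 673, 686 and 736 at ZT17, and 745, 591 and 612 at ZT21. As in C6, ZT5 and ZT13 were the low times, and every liver of ZT9 exceeded every liver of both. ZT5 replicate 3 again had the lowest value of all livers. The F test was passed (limma, adjusted p = 0.0167) with a cosine amplitude of 0.02 ± 0.08 (0.962). This F call held in each of the 18 fits that left out 1 liver (at most 0.0436). The 12 h term was not called either for C6 or C9 (limma, adjusted p = 0.804 and 0.647). Without the 3 livers together, neither F call held (0.0723 and 0.0737). C8a, C8b and C8g, the 3 chains of C8, had ratios of 1.29, 1.42 and 1.15 and no call, except that C8b passed the F test without ZT13 replicate 1 (0.0337). Hc, the gene of C5, ranged from 749.6 to 1263 and was not called (0.187).

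The lectin pathway held both called and level genes. Mbl1 encodes a mannose-binding lectin that recognises microbial sugars (chromosome 14, 41151458 to 41159601, plus strand). Its values were 162, 158 and 162 at ZT1, 133, 131 and 135 at ZT5, 138, 150.2 and 137 at ZT9, 112, 125 and 115 at ZT13, 137, 128 and 146 at ZT17, and 174, 147 and 151 at ZT21. ZT13 was below every liver of every other time, and ZT1 was above those of ZT5, ZT9, ZT13 and ZT17. The log2 difference of ZT13 from ZT1 was -0.45 ± 0.09, and the peak was at 23.8 h ± 0.93 (limma, adjusted p = 0.00243 and 0.0121). The other lectin, Mbl2, was at 241, 265 and 285 at ZT1, 298, 242 and 309 at ZT5, 292, 259.7 and 281 at ZT9, 259, 304 and 269.6 at ZT13, 280.2, 249.7 and 267 at ZT17, and 269, 269.8 and 273 at ZT21. Its time points overlapped and their means lay within 1.07-fold (limma F test, adjusted p = 0.935).

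Masp1, a protease bound to these lectins (chromosome 16, 23449417 to 23520815, minus strand), was at 67.4, 60.9 and 58.9 at ZT1, 75.3, 72.8 and 75.1 at ZT5, 79.1, 92.8 and 96.7 at ZT9, 73.3, 62.2 and 82.0 at ZT13, 59.2, 64.4 and 63.5 at ZT17, and 53.0, 60.7 and 56.9 at ZT21. Every liver of ZT5 and ZT9 exceeded every liver of ZT1, ZT17 and ZT21. ZT21 was lower than ZT9 by a log2 difference of -0.64 ± 0.11 and the peak was at 8.83 h ± 0.57 (limma, adjusted p = 0.00111 and 0.000262), and the F call held in every setting. The related protease Masp2 had a ratio of 1.19 and no call, though its cosine passed without ZT17 replicate 1 or ZT21 replicate 1 (limma, adjusted p = 0.0288 and 0.0372). Masp1 overlaps Rtp4 and Masp2 overlaps Tardbp, each on the other strand, and the library kit is not stated to mark strand. In all, 10 of the 47 genes overlap another gene with a row. They include F5 and Fgg, each with a gene on the other strand, and Serpinc1, Plg, Serpind1 and C8g.

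The inducible serum amyloid A genes showed their largest spread between livers of the same time. Saa1 (chromosome 7, 46740497 to 46742980, minus strand) encodes an acute-phase protein. It was at 27.2, 25.8 and 23.2 at ZT1, 53.2, 27.9 and 15.9 at ZT5, 59.4, 901 and 34.6 at ZT9, 43.8, 623 and 68.0 at ZT13, 33.7, 54.3 and 228 at ZT17, and 39.6, 25 and 26.6 at ZT21. A set of 15 livers lay between 15.9 and 68.0, and ZT9 replicate 2, ZT13 replicate 2 and ZT17 replicate 3 lay at 228 or above. The F test was not passed (limma, adjusted p = 0.257). The cosine was called (adjusted p = 0.0456, amplitude 1.32 ± 0.41, peak at 12.4 h), and the call was lost in 12 of 18 fits without 1 liver, those without any single liver of ZT1, ZT5 or ZT21, ZT13 replicate 2, or replicate 2 or 3 of ZT17 (up to 0.121). The call was lost too on the linear scale, with the pseudocount of 0.1, with a cosine of 28 h and beside the 12 h term (limma, adjusted p = 0.232, 0.0584, 0.0588 and 0.0599). Without the 3 livers the amplitude was 0.55 ± 0.15. Those livers had been picked by their Saa1 values, so a p-value of that fit is no fair test of Saa1.

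Saa2, which lies beside Saa1 and is nearly identical to it, was at 686 in ZT9 replicate 2, 371 in ZT13 replicate 2 and 88.6 in ZT17 replicate 3, and between 7.51 and 22.5 in the other 15 livers. Reads of Saa1 and Saa2 can be assigned to either gene, so their split is uncertain. Lcn2, a siderophore-binding protein of the acute phase, ranked these livers the same way, at 35.6, 8.04 and 4.04, against 0.724 to 3.60 in the others. Orm2, an acid glycoprotein whose reads may be shared with Orm1 and Orm3, ranked them otherwise, at 11.6, 52.5 and 16.9, against 3.10 to 9.12. The neutrophil markers, a cell type that also makes Lcn2, summed to 2.72 in ZT9 replicate 2, the highest of the 18 livers, and to 1.47 and 1.36 in the other pair, within the range of the rest. The part of these cells was not tested.

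Against the mean of the other livers of its time, ZT9 replicate 2 was 19.2 times higher in Saa1, 47.2 in Saa2, 27.9 in Lcn2, 2.64 in Fgl1 and 2.40 in Hp. In all, 13 of the 47 genes exceeded this mean more than 1.5-fold there, Fga, Fgb, Fgg, Fgl1, Saa1, Saa2, Apcs, Orm1, Orm2, Hp, Hpx, Itih4 and Lcn2. ZT13 replicate 2 did so in 6 genes, Fgl1, Saa1, Saa2, Orm2, Hpx and Lcn2, with Saa1 at 11.1 and Orm2 at 8.10 times. ZT17 replicate 3 did so in 4, Saa1, Saa2, Orm2 and Lcn2, with Saa1 at 5.18 times. The share of all genes past 1.5-fold was not counted, and the livers had been picked by Saa1, which is in each count. Over the 47 genes the median ratio was 1.13 in ZT9 replicate 2, 1.10 in ZT13 replicate 2 and 1.04 in ZT17 replicate 3. Over all genes it was 0.995, 0.9998 and 0.996. ZT9 replicate 2 was the highest of all 18 livers in 21 of the 47 genes (44.7%) and in 6.4% of all genes. These genes come from several roles, complement included. The same liver had the lowest sum of hepatocyte markers of the 18 (71507), with 75100 and 77000 in the other livers of ZT9. It had the highest sum of Kupffer markers of its time (279.9). Fewer cells and less RNA per cell cannot be told apart in these sums, and their part was not tested. These values are a description of single animals and no test was made of them.

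**Figure D3:**
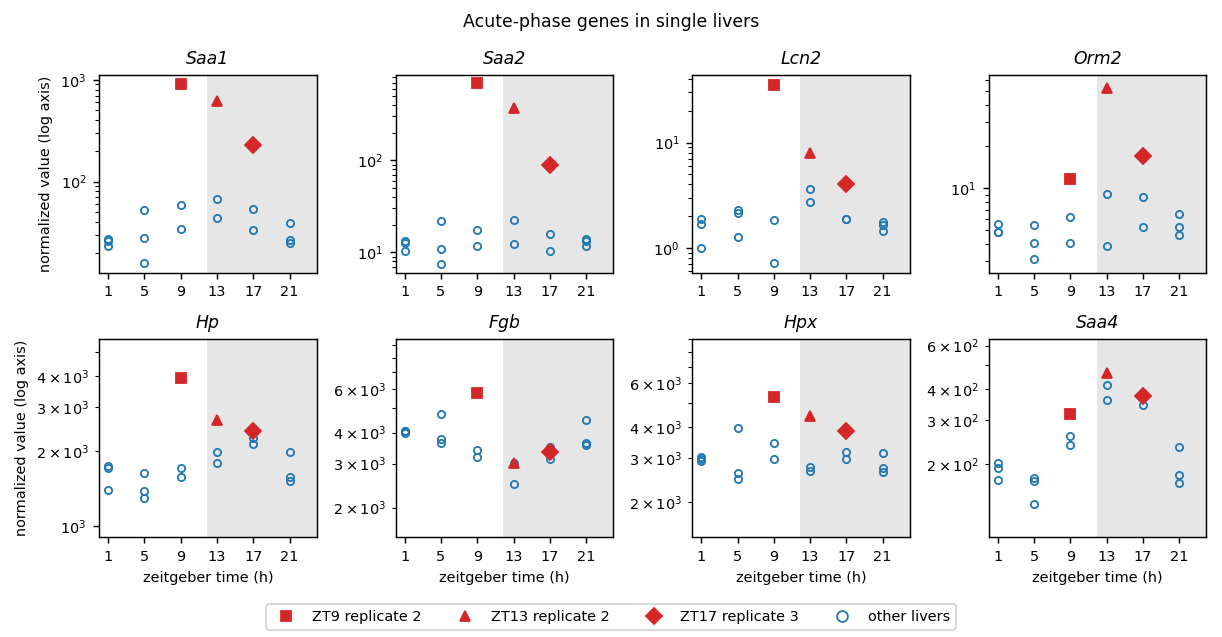
Normalized value (log axis) against zeitgeber time for 8 acute-phase genes, 1 point per liver, with grey for the dark phase. Red marks the 3 livers that stood apart. They exceed all other livers in Saa1, Saa2, Lcn2 and Orm2, and by less in Hp, while in Saa4 they lie near the livers of their own time. In Hpx, ZT17 replicate 3 lies below ZT5 replicate 1, and in Fgb only ZT9 replicate 2 of the 3 exceeds all other livers.

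The haptoglobin gene Hp, whose product binds free haemoglobin, was at 1392, 1717 and 1735 at ZT1, 1629, 1381 and 1293 at ZT5, 1574, 3929 and 1705 at ZT9, 1976, 2673 and 1792 at ZT13, 2263, 2137 and 2415 at ZT17, and 1979, 1574 and 1515 at ZT21. ZT17 lay above all livers of ZT1, ZT5 and ZT21. With ZT9 replicate 2 included neither the F test nor the cosine was called (limma, adjusted p = 0.199 and 0.0616), and without that liver both were (0.0267 and 0.00379). The cosine was called too without ZT13 replicate 3 (0.0439), and without the 3 livers together (0.0188, peak at 16.1 h), when the F test was not passed (0.08). As ZT9 replicate 2 was the highest of all livers in Hp, p-values without it are no fair test of this gene.

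Of the other acute-phase genes, Orm1, Crp and Itih3 passed the cosine test but neither the F test nor JTK. Orm1, the main acid glycoprotein, had means from 447 ± 59.8 at ZT5 to 726 ± 83.9 at ZT17, a log2 difference of 0.70 ± 0.17 (limma, adjusted p = 0.00953) that held in every setting. Its cosine (0.0344) was lost in 6 fits without 1 liver, those without any single liver of ZT5, ZT13 replicate 2, or replicate 2 or 3 of ZT17 (up to 0.0925). The cosine call was lost too with livers scaled to equal totals (0.0641), on the linear scale (0.0643) and with periods of 20 h (0.0529) and 28 h (0.0556). The F test of Orm1 (0.0542) was passed without ZT9 replicate 2 or 3 or ZT21 replicate 2 (down to 0.0213). Crp, which encodes C-reactive protein, a weak acute-phase reactant in mice, peaked at 19.7 h with an amplitude of 0.20 ± 0.05 (0.0189), and passed the F test without ZT9 replicate 2 (0.0187). Itih3, an inter-alpha-trypsin inhibitor heavy chain, peaked at 19.4 h (0.04), and its call was lost in 9 fits without 1 liver, those without ZT1 replicate 3, any single liver of ZT17, ZT21 replicate 1, replicate 2 or 3 of ZT5, or replicate 1 or 3 of ZT9 (up to 0.0851). Apcs (serum amyloid P), Hpx (hemopexin), Itih4, Orm2, Saa2 and Lcn2 had ratios between 1.28 and 19.6 and no call, though Apcs passed the cosine test without ZT9 replicate 2 (0.034) and Orm2 without ZT13 replicate 1 (0.0334). ZT9 replicate 2 was the highest of all livers in Orm1 and Apcs, so p-values without it are no fair test of these genes.

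**Figure D4:**
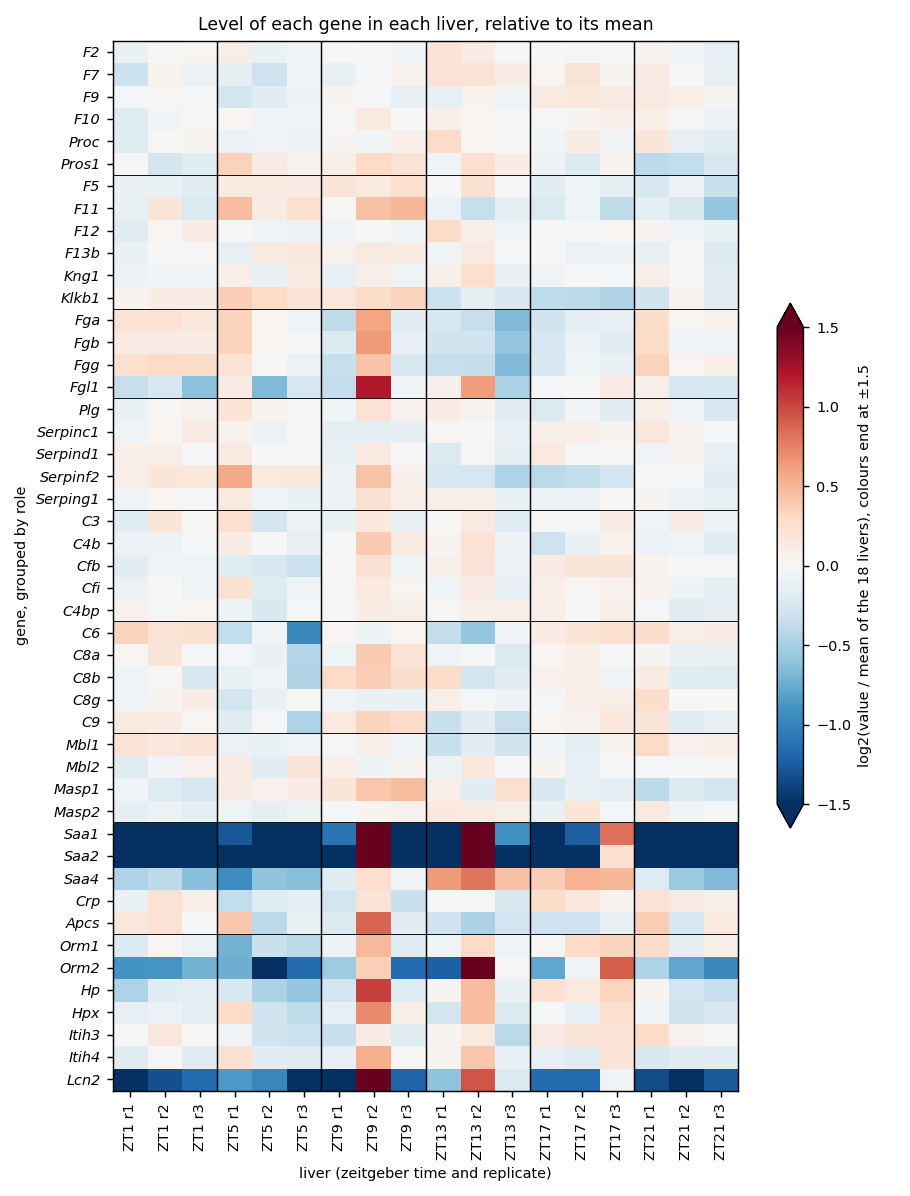
Level of the 47 genes (rows, grouped by role) in the 18 livers (columns, 3 per zeitgeber time), as log2 of the value over the mean of the gene, with colours ending at 1.5 either way. Single dark columns within a time, above all ZT9 replicate 2, stand out in the fibrinogen and acute-phase rows, and Saa4 changes as a block at ZT13 and ZT17.

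Comparisons of times 12 h apart, taken as fixed pairs, gave the direction of these differences. At ZT13 against ZT1, 1 of the 47 genes was higher (Saa4; 6.8% of all genes were) and 7 were lower, Klkb1, Fga, Fgg, Serpinf2, C6, C9 and Mbl1 (14.9%, against 7.42% of all genes). With any ZT1 liver left out, 3 genes in all were called (8.82% to 10.4% of all genes). With ZT13 replicate 1 left out 5 were called (9.34%), and with ZT13 replicate 3 left out 4 (11.7%). Fgg, Mbl1 and Saa4 were called in every setting. At ZT17 against ZT5, 6 were higher, F9, Cfb, C6, Saa4, Crp and Orm1 (9.26% of all genes were), and 3 were lower, F11, Klkb1 and Serpinf2 (10.5%). The call of F11 was lost without replicate 1 or 3 of either time (limma, adjusted p up to 0.141). At ZT21 against ZT9, none was higher by limma, with 2 at an unadjusted p below 0.05 (5.63% of all genes were called), and 6 were lower, Pros1, F5, F11, Klkb1, Masp1 and Saa4 (5.07%). The last-named call was lost without replicate 2 or 3 of either time (up to 0.163), that of F11 without ZT9 replicate 2 or 3 or ZT21 replicate 3 (up to 0.0798), and that of Klkb1 without ZT21 replicate 1 (0.0598). Calls were lost too without the 3 livers that stood apart. At ZT13 against ZT1 these included C6, C9 and Klkb1 (limma, adjusted p = 0.157, 0.0638 and 0.0537). At ZT17 against ZT5 they included F11 and C6 (0.135 and 0.0538), and at ZT21 against ZT9 Saa4, F11 and Klkb1 (0.178, 0.0757 and 0.0535). In that fit 6, 8 and 4 of the 47 genes were called (10.7%, 16.1% and 6.61% of all genes).

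Further genes of the same pathways, listed apart from the 47, were called by the F test in 6 cases of 19 in coagulation and fibrinolysis, 4 of 28 in complement, 12 of 37 among other liver plasma proteins and 6 of 17 among regulators of the acute phase, where 26.3% of all genes were called. In coagulation the lowest p-values were those of F3, tissue factor, which peaked at 8.43 h with a ratio of 2.60, and of the protease inhibitor Serpine2, at 18.9 h with 4.02 (limma F test, adjusted p = 0.000131 and 0.000217). In complement they were those of C1rl (peak at 1.85 h, ratio 1.37) and C2 (12.5 h, 1.55). Among plasma proteins they were Mug2, a murinoglobulin that traps proteases (2.92 h, 1.67), and Serpina6, the corticosteroid carrier (11.3 h, 2.61). Of the regulators they were Il6ra, a chain of the IL-6 receptor (11.7 h, 3.25), and Hnf4a, a nuclear receptor of hepatocytes (12.8 h, 1.54).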

How the data were processed

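The samples were 18 mouse livers, grouped by the zeitgeber time in the labels, 3 per time. Livers are independent animals, no batch is given in the labels, and replicate numbers follow the order of deposit. Per the labels and the study's methods, the authors prepared libraries from polyadenylated RNA with the NEBNext Ultra kit, removed adapters with cutadapt, estimated expression with RSEM 1.2.20 on transcripts of GRCm38 and normalized it with limma. The deposited table gives a linear signal, the estimated count plus 0.5 scaled to 1000000 of an effective library size. The lowest value of each liver stands for 0 reads, and from it depth was found to be 10268168 to 23242842 estimated reads (median 12078875). Since 44.1% to 52.8% of values per liver were whole reads within 0.02, no count test was used. Genes at the lowest value in all livers (2) were left out, and 14449 were tested.

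All tests used log2(value + 1). limma 3.58.1 in R 4.3.3 fitted all genes with an F test over 6 times, fixed contrasts 12 h apart, a 24 h cosine and a 12 h term, and JTK was written again in Python 3.11.15 with numpy 2.4.6 and its exact null for 6 groups of 3, adjusted by Bonferroni over 18 orders and by Benjamini-Hochberg over genes. The threshold was an adjusted p below 0.05. Fold changes are on the log2(value + 1) scale, which understates changes of low genes, and ratios are of mean values. CircaN and MetaCycle were not run, as the methods do not state the constants of the CircaN curves. The fits were tested on simulated data. Coordinates are from GENCODE M21 on GRCm38. Genes with values in every liver were the 12 past the F test and 1 gene per role, F2, F11, Fgb, Serpinc1, C3, C9, Mbl2, Saa1 and Hp, and Saa2, Lcn2, Orm2, Fga, Orm1 and the genes whose calls turned on 1 liver were described after their values had been seen. From other lists the 2 with the lowest F test p were named. The genes, lists and tests were chosen with earlier results of these data known. Alternatives were another pseudocount, a variance trend, a filter on low values, 2 other scalings, a linear scale for the cosine and other periods. The 24 h cosine was also tested beside the 12 h term, and JTK with times of equal cosine as 1 group. Each liver was left out in turn, and, chosen after seeing the data, 3 livers were left out together.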

Additional observations from a re-analysis of the deposited data

How the results depend on the processing

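The counts by the F test, the 24 h cosine, the 12 h term and the 3 contrasts of times stayed within 1.5 times of their values under the pseudocount of 0.1, the variance trend, the filter, both scalings and the removal of the 3 livers that stood apart. Without those 3 livers fewer genes were called over all genes. The F test then called 11 of the 47 genes (18.4% of all genes, against 26.3% with them). The cosine called 18 (28.2%, against 35.3%). JTK called 15 of the 47 genes with the period of 24 h alone (17.4% of all genes), where it called 9 with 3 periods (14.1%). It called 13 when times of equal cosine were taken as 1 group (22.4%), and 3 without the 3 livers together (2.94%). With each liver left out in turn, the F test called 10 to 17 genes (22.5% to 24.9% of all genes) and the cosine 14 to 20 (31.6% to 35.2%). JTK then called 6 to 12 (8.76% to 13.2%) and the 12 h term 0 (0.221% to 0.789%). ZT13 against ZT1 then gave 3 to 9 (8.82% to 14.4% of all genes), ZT17 against ZT5 6 to 11 (13.7% to 20.3%) and ZT21 against ZT9 4 to 7 (6.69% to 11%). Klkb1, Serpinf2, F5, Pros1, Masp1, Mbl1 and Saa4 passed both the F test and the cosine in every setting tried. Times have 3 livers each, so 1 animal can set a mean, and low genes such as Lcn2 rest on few reads. No paired analysis was possible because each animal gave a single liver and the labels hold no replicate number shared between times.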
